A study of Mus musculus with 5 samples.

Results

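Runx3-bound and H3K4me1-marked regions were examined around 4 genes whose proteins mark mRNAs for decay, namely Zfp36, Zfp36l1, Zfp36l2 and Zc3h12a. Regions were chosen by position, as those that overlapped by at least 1 bp a gene body extended by 30 kb on each side. This gave 29 of 28127 regions, made up of 13 of the 9135 Runx3-bound and 16 of the 18992 H3K4me1-marked regions. Because position chose the members, the counts per gene below are a description and carry no test. The cells were splenic CD8+ T cells (CD8-TC) of ICR mice, taken on anti-CD8 magnetic beads, TCR-activated for 2 days and then kept for 4 days with IL-2 at 100 u/ml. All groups shared this treatment and differed in the antibody alone. The 5 libraries were 2 ChIPs with anti-Runx3 antibody, 2 with non-immune serum (NIS) as control and 1 with anti-H3K4me1 antibody. The reads of repeats were joined into 1 set before peak calling, though the number of repeats behind the H3K4me1 list is unclear. Only positions were deposited. The regions therefore have no replicate error, no height and no read count of their own, and intervals given for shares cover counting error alone.

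ZFP36 proteins are zinc finger proteins that bind AU-rich elements in the 3′ ends of short-lived mRNAs and bring in the CCR4-NOT deadenylase, which shortens the poly(A) tail. Zfp36 encodes tristetraprolin, the founding member, while Zfp36l1 and Zfp36l2 encode relatives that also restrain lymphocyte proliferation. Zc3h12a encodes Regnase-1, an endoribonuclease that cuts stem-loops in mRNAs of inflammatory genes and is itself cleaved by the protease MALT1 after TCR signalling. Runx3, of the RUNX family, is a DNA-binding transcription factor needed by cytotoxic lymphocytes, and H3K4me1 is a histone mark found at many enhancers.

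The following stretches were read from the mm9 genome on the gene strand, within the Runx3-bound regions on which the description turns. Distances are those of the region centres. The stretches were picked to set regions with a RUNX motif in the central 200 bp beside regions without one. Where there was such a motif, the stretch was cut around it and need not hold the centre. Those at -5.04 kb, -4.00 kb and the TSS of Zfp36 lie beside the centre. Without such a motif, the stretch is the central 100 bp. Capitals mark RUNX motifs (TGYGGY, Y is C or T, or its complement). In the stretch at -1.87 kb they also mark the ETS (MGGAAR, M is A or C, R is A or G) and AP-1 (TGACTCA or its complement) motifs. In the Zfp36l2 and the first Zc3h12a stretches, which have no RUNX motif, they mark ETS motifs where there are any.
Zfp36 at -5.04 kb, chr7:29169317-29169397, minus strand: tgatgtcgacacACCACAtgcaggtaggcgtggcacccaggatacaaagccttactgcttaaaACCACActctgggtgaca
Zfp36 at -4.00 kb, chr7:29168296-29168355, minus strand: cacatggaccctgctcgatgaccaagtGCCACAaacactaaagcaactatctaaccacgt
Zfp36 at -1.87 kb, chr7:29166125-29166255, minus strand: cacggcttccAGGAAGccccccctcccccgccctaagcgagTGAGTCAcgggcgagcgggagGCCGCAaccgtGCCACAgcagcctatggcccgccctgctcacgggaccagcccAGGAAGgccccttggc
Zfp36 at the TSS, chr7:29164263-29164304, minus strand: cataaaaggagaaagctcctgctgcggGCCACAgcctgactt
Zfp36l1 at the TSS, chr12:81214107-81214166, minus strand: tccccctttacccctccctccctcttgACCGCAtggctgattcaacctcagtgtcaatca
Zfp36l2 at 5998 bp, chr17:84581239-84581338, minus strand: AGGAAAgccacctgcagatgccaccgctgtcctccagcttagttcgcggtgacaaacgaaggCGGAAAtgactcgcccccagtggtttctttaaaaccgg
Zfp36l2 at 7.01 kb, chr17:84580230-84580329, minus strand: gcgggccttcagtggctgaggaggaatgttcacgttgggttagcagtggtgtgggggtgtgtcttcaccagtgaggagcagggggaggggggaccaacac
Zc3h12a at 3.03 kb, chr4:124802005-124802104, minus strand: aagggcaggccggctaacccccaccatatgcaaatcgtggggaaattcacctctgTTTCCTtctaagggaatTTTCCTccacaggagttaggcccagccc
Zc3h12a at 4.34 kb, chr4:124800705-124800764, minus strand: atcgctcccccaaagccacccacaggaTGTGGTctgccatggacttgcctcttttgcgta

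All 4 genes held both kinds of region, but in different arrangements. Zfp36 had 7 Runx3-bound regions, 5 of them in a row upstream of or across its TSS. Zfp36l1 had 1 at its TSS and 1 far upstream. Zfp36l2 had a pair downstream of the gene that lay outside H3K4me1, and Zc3h12a had a pair inside the gene that lay within H3K4me1. Over all 22350 protein-coding genes with the same extension, 39.6% had at least 1 Runx3-bound region and 44.6% at least 1 H3K4me1-marked region. The 2 regions of Zfp36l1, Zfp36l2 and Zc3h12a were matched or exceeded in 18.1% of genes, and the 7 of Zfp36 in 0.412%. These counts depend on whether close regions are counted apart, since the gaps between region edges were 432, 347 and 388 bp among the 4 upstream regions of Zfp36, 300 bp at Zfp36l2 and 727 bp at Zc3h12a. With regions closer than 1 kb merged, Zfp36 had 4, which 2.85% of genes matched or exceeded. Zfp36l1 kept 2, and Zfp36l2 and Zc3h12a had 1 each, and 39.6% of genes had at least 1.

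**Figure D1:**
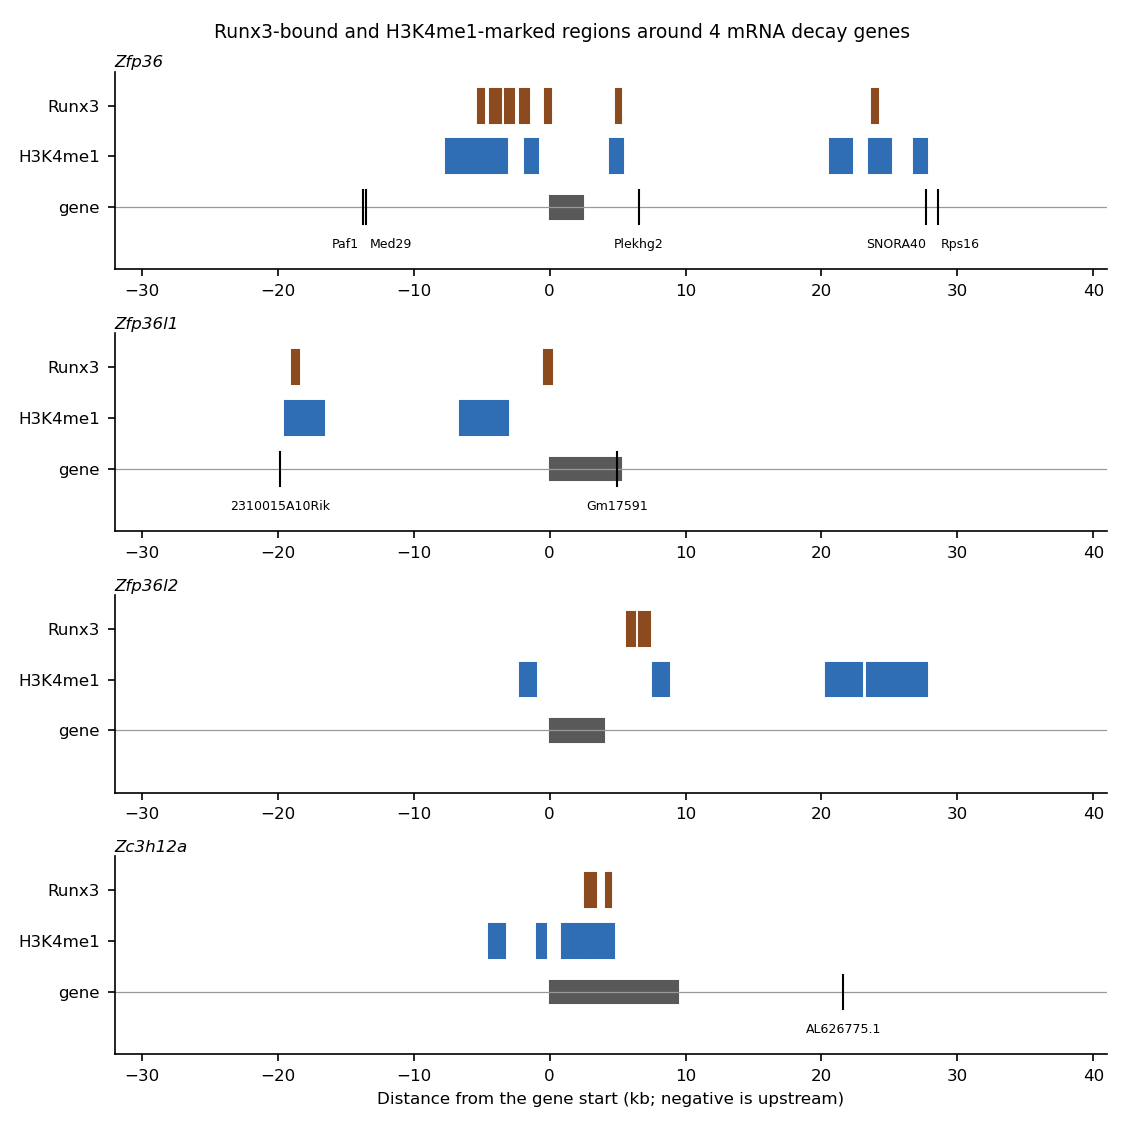
Positions of the called regions around the 4 genes, with distance from the gene start in kb on the horizontal axis, Runx3-bound regions in brown, H3K4me1-marked regions in blue, gene bodies in grey and other annotated starts as black lines. Zfp36 has 7 Runx3-bound regions and the other genes have 2 each. The 4 panels differ in where these lie.

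H3K4me1 covered 10.5 kb (16.9%) of the Zfp36 window, 6.38 kb (9.77%) of that of Zfp36l1, 9.44 kb (14.7%) of that of Zfp36l2 and 5.52 kb (7.95%) of that of Zc3h12a. The median gene had 0 Runx3-bound and 0 H3K4me1-marked regions and 0% cover, and the 90th percentile of cover was 8.33%. Thus 3 of the 4 windows were above that percentile and the window of Zc3h12a was just under it. As much cover was found in 2.52% of genes for Zfp36, 7.82% for Zfp36l1, 3.47% for Zfp36l2 and 10.7% for Zc3h12a. The order by cover was not the order by Runx3-bound regions, since Zfp36l2 was next to Zfp36 in cover with only 2 Runx3-bound regions.

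**Figure D2:**
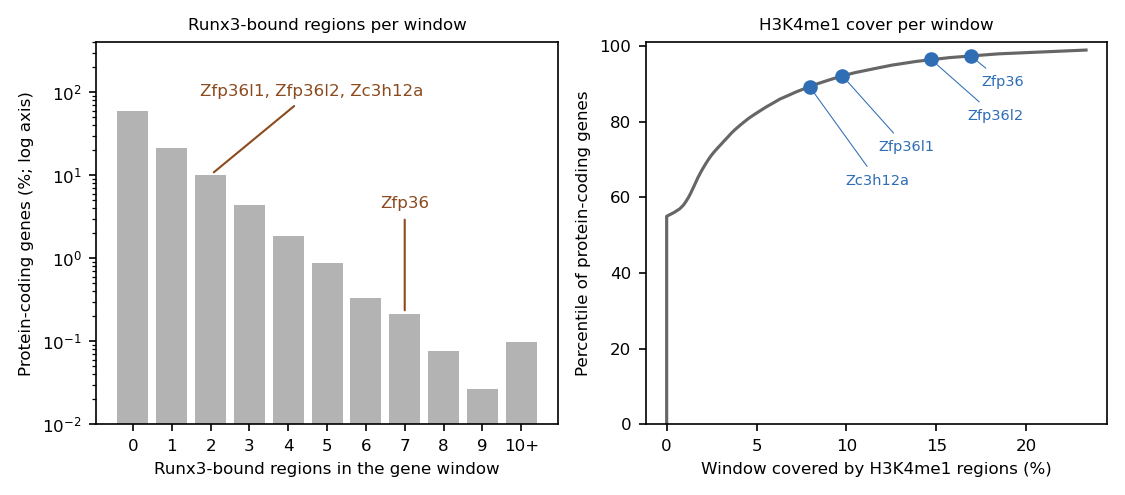
Left, the percent of protein-coding genes (log axis) by number of Runx3-bound regions in the gene window. Right, the cumulative percentile of genes by the percent of the window that H3K4me1-marked regions cover, with the 4 genes as points. Zfp36 stands at 7 regions and 16.9% cover, and the other genes at 2 regions and 7.95% to 14.7% cover.

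Zfp36 lies on the minus strand of chromosome 7 (chr7:29161803-29164274, ENSMUSG00000044786.5) and is 2.47 kb long. Its most distant upstream Runx3-bound region was chr7:29169107-29169524 (418 bp), centred 5.04 kb upstream. The next were chr7:29167865-29168674 (810 bp) at 4.00 kb, chr7:29166869-29167517 (649 bp) at 2.92 kb and chr7:29165816-29166480 (665 bp) at 1.87 kb upstream. These 4 regions were all intergenic, and that of Zfp36 was the nearest annotated start. The fifth, chr7:29164157-29164579 (423 bp), was centred 94 bp upstream of the TSS and spanned it. It held 305 intergenic bp, 58 bp of 5′ UTR, 24 coding bp and 36 intronic bp.

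The 5 centres were spaced 1046, 1076, 1045 and 1780 bp apart, so the spaces between the upstream regions were nearly equal and the last, to the TSS, was wider. Neighbouring Runx3-bound centres under 2 kb apart made up 496 pairs in the whole list, with a median spacing of 1102.5 bp and quartiles of 737 and 1506 bp, so the 3 upstream spacings at Zfp36 were near the median and the last was above the upper quartile. When centres under 2 kb from the next were joined into chains, the list fell into 8639 chains. Of these, 8176 were single regions, 435 held 2, 24 held 3, 3 held 4 and 1, that at Zfp36, held 5. Merging regions closer than 1 kb turns the first 4 of these 5 into 1 region. With a limit of 1.5 kb the Zfp36 chain had 4 regions and 2 chains were at least as long, and with 3 kb it had 5 regions, 3 chains were at least as long and the longest held 6.

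Counted from the TSS, Zfp36 had all 5 centres within 6 kb upstream. It was the only protein-coding gene with 4 or more (0.00447% of genes) and so also the only one with 5 or more (0.00447%). This criterion was set after the positions had been seen, and its outcome depended on the distance. Within 3 kb upstream Zfp36 had 3 centres and 0 genes had 4 or more. Within 10 kb upstream 5 genes had 4 or more, namely Izumo4, Lrrc8c, Park7, Plekhg2 and Zfp36. Plekhg2 is the next gene downstream of Zfp36 and lies on the same strand, with its start 6.59 kb from that of Zfp36. Its 10 kb span therefore takes in the Zfp36 centres at -2.92, -1.87 and -0.0940 kb, so these 2 genes are not separate cases.

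The H3K4me1 mark did not follow the 5 regions evenly. The regions at -5.04 and -4.00 kb were 100% covered by 1 H3K4me1-marked region of 4515 bp (chr7:29167404-29171918), wider than 97.2% of its list. That region reached from -7644 to -3130 bp, overlapped the 3′ part of Med29 (a Mediator subunit) by 639 UTR and 115 coding bp, and covered 17.6% of the Runx3-bound region at -2.92 kb. The region at -1.87 kb was covered over 38.6% of its width by a marked region of 946 bp (chr7:29165127-29166072). At the TSS, cover was 0% and the nearest marked region was 547 bp away. Cover along the chain therefore went from complete through partial to none towards the TSS.

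RUNX motifs were unequally spread along the chain. The region at -4.00 kb held 8, or 9.88 per kb, and that at -5.04 kb held 3, of which 2 were TGTGGT on the same strand within the central 200 bp. The region at -1.87 kb held 3 RUNX motifs, with 2 of them, 1 AP-1 and 2 ETS motifs inside its central 200 bp. It was the only one of the 13 with all 3 kinds there. The region at -2.92 kb held 2 RUNX motifs, none central, and 2 central ETS motifs. The single RUNX motif at the TSS, TGTGGC, spanned the start itself.

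Downstream of Zfp36, the region chr7:29159048-29159408 (361 bp) was centred 5.05 kb from the Zfp36 TSS but 1.55 kb upstream of that of Plekhg2, the nearer start. It was 100% covered by a marked region of 1005 bp (chr7:29158837-29159841), and its TGTGGT stood 9 bp from its centre. The region chr7:29140153-29140530 (378 bp) was centred 23.9 kb downstream, 3.81 kb from SNORA40, a small nucleolar RNA, and 4.67 kb from Rps16, which encodes a protein of the small ribosomal subunit. It too was 100% covered, by a marked region of 1569 bp (chr7:29139194-29140762). These 2 regions were in the window of Zfp36 but nearer to other genes. The remaining marked regions, chr7:29142056-29143632 (1577 bp) and chr7:29136542-29137476 (935 bp, over Rps16 and SNORA40), overlapped no Runx3-bound region.

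**Figure D3:**
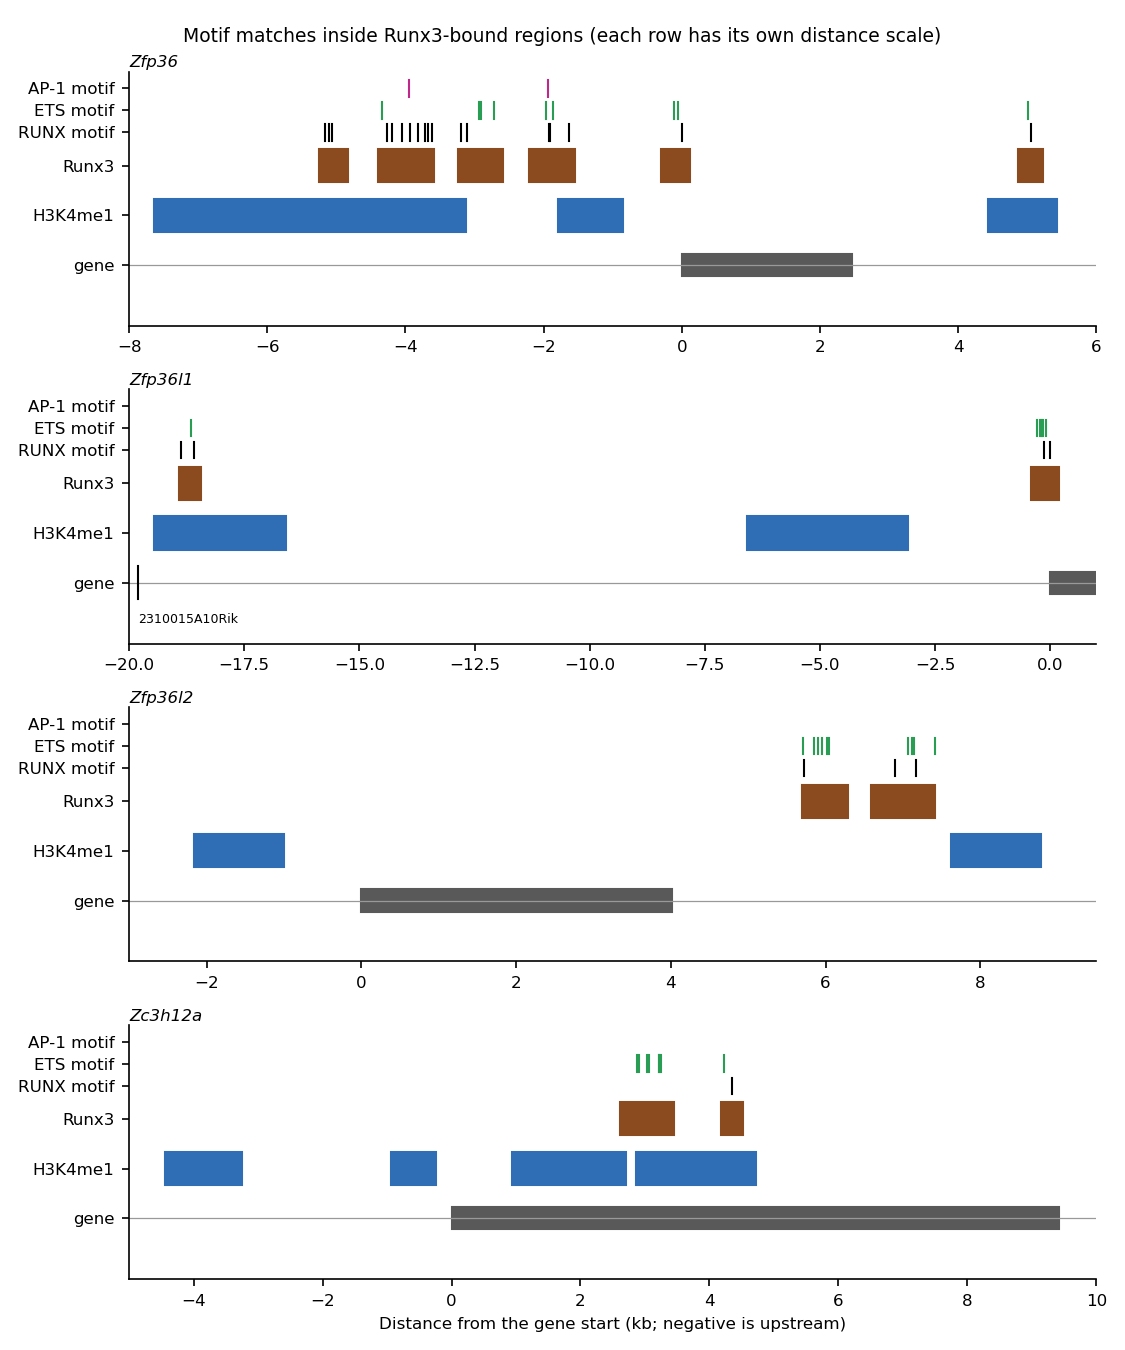
Motif matches inside the Runx3-bound regions near each gene, with distance from the gene start in kb on the horizontal axis (scales differ by panel). Brown and blue bars are Runx3-bound and H3K4me1-marked regions, and black, green and magenta ticks are RUNX, ETS and AP-1 matches. The region at -4.00 kb of Zfp36 has 8 RUNX ticks and the wider region inside Zc3h12a has 7 ETS ticks and 0 RUNX ticks.

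Zfp36l1 (chr12:81208747-81214000, minus strand, ENSMUSG00000021127.6, 5.25 kb) shared with Zfp36 a Runx3-bound region across its TSS. This region, chr12:81213803-81214425 (623 bp), was centred 114 bp upstream and held 425 intergenic, 138 UTR and 57 coding bp, along with 3 bp of an exon of the lincRNA Gm17591. As at Zfp36, it had 0% H3K4me1 cover, and the nearest marked region was 2661 bp away. A Runx3-bound centre under 1 kb from the gene start was present in 2 of the 4 genes and in 8.84% of protein-coding genes. Its RUNX motifs were TGCGGT and TGCGGC, and it held 6 ETS motifs, 4 of them central.

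The other Zfp36l1 region, chr12:81232450-81232923 (474 bp), was centred 18.7 kb upstream, inside the lincRNA 2310015A10Rik and 1.15 kb from the start of that transcript. It covered 123 bp of exon and 351 bp of intron, was 100% covered by a marked region of 2871 bp (chr12:81230587-81233457) and had a central TGCGGT. Between the 2 Runx3-bound regions lay a marked region of 3506 bp (chr12:81217087-81220592), wider than 93.3% of its list, that overlapped none. Upstream H3K4me1 and Runx3 at the start were thus separate at this gene.

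Zfp36l2 (chr17:84583271-84587287, minus strand, ENSMUSG00000045817.7, 4.02 kb) had its Runx3-bound regions past the 3′ end of the gene. They were chr17:84580994-84581585 (592 bp) and chr17:84579868-84580693 (826 bp), centred 5998 bp and 7.01 kb from the TSS and 1009 bp from each other, both intergenic. Neither overlapped H3K4me1, although the nearest marked region was only 1329 and 203 bp away. Zfp36l2 was the one gene of the 4 with Runx3-bound regions that all lay outside H3K4me1 while marked regions were present in the window. The same arrangement with at least 2 Runx3-bound regions was found in 693 of all 22350 protein-coding genes (3.10%). At most the 4038 genes (18.1%) with at least 2 Runx3-bound regions could show it, and they needed a marked region in the window too.

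The 4 marked regions around Zfp36l2 were chr17:84588289-84589448 (1160 bp, centred 1.58 kb upstream, with 53 UTR bp of Thada), chr17:84578499-84579664 (1166 bp), chr17:84564287-84566992 (2706 bp) and chr17:84559553-84563962 (4410 bp). The last pair lay 21.6 and 25.5 kb downstream and made up most of the cover of the window. The 2 Runx3-bound regions had 1 and 2 RUNX motifs, none of them in the central 200 bp, and 4 and 1 central ETS motifs. They were the only 2 of the 13 that lacked both the mark and a central RUNX motif.

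Zc3h12a (chr4:124795667-124805084, minus strand, ENSMUSG00000042677.7, 9.42 kb) held both of its Runx3-bound regions in introns. The first, chr4:124801638-124802472, was centred 3.03 kb downstream of the TSS and was the widest of the 13 at 835 bp. The other, chr4:124800568-124800910, was centred at 4.34 kb and was the narrowest at 343 bp. Its centre was 975 bp from an alternative transcript start at 5.32 kb. By any annotated start, 3 of the 4 genes thus had a Runx3-bound centre under 1 kb away. The share of all genes by this wider definition is not given here. Counted by region, 3 of the 13 (23.1%) were under 1 kb from any transcript start, against 26.3% of the whole list.

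The wide region spanned the space between the marked regions chr4:124802385-124804153 (1769 bp) and chr4:124800360-124802225 (1866 bp) and was covered over 81.0% of its width, while the narrow one was 100% covered by the second of these. Only 1 of the 13 overlapped more than 1 marked region, against 7.53% of the whole list. In the wide region there was no RUNX motif on either strand in all 835 bp, but there were 7 ETS motifs, 2 of them central. The narrow region held a single TGTGGT, 5 bp from its centre. Of the whole list 7.42% had no RUNX motif, and of the 516 regions at least as wide as the widest of the 13, 10 (1.94%) had none. The absence of these letters says nothing of how Runx3 was bound there.

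Upstream of Zc3h12a lay 2 marked regions without Runx3, chr4:124808333-124809527 (1195 bp) and chr4:124805330-124806018, which at 689 bp was wider than only 1.20% of its list. The TSS fell in the space between marked regions, whose nearest edges were 0.246 kb upstream and 0.931 kb downstream. The other 3 starts also lay outside H3K4me1, with the nearest upstream edge at 0.853 kb for Zfp36, 3.09 kb for Zfp36l1 and 1.00 kb for Zfp36l2. Of all protein-coding starts, 1.29% lay inside a marked region, and of those of genes with a marked region in the window 2.89%. Starts outside the mark were the rule in this list and are not particular to these genes.

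Together, 9 of the 13 Runx3-bound regions overlapped H3K4me1 (69.2%, Wilson 95% interval 42.4% to 87.3%), and 57.3% of the whole list did. Of the 16 marked regions, 7 held Runx3 (43.8%, 23.1% to 66.8%), against 29.2% of the whole list. Both intervals held the value of the whole list. They treat the regions as independent, although 5 of the 13 lay in 1 chain at Zfp36, so they cannot decide whether there was a difference. Of the 9 overlapping regions 6 were wholly covered, against 60.6% of the whole list. The 4 unmarked regions all lay under 3 kb from a marked region, with a median gap of 0.938 kb, while 29.9% of unmarked regions of the whole list did and their median gap was 16.9 kb. The 4 windows all held marked regions, and the part of this in the short distances was not tested.

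Within the central 200 bp, a RUNX motif was present in 9 of the 13 regions (69.2%, 42.4% to 87.3%) and in 78.8% of the whole list. An ETS motif was present in 10 (76.9%, 49.7% to 91.8%) against 66.2%, and an AP-1 motif in 2, both upstream of Zfp36, against 6.50%. STAT motifs (TTCNNNGAA) were in 0 of 13 against 10.7%, and NF-kB motifs (GGGNN followed by TTTCC) in 0 of 13 against 1.60%. For each of these the Wilson interval of the 13 (up to 22.8% for 0 of 13) held the value of the whole list. A pair of RUNX motifs at most 50 bp apart was found in 2 of 13 against 25.7%, and an ETS and a RUNX motif as close in 4 of 13 against 39.0%.

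By RUNX letters, the central 200 bp held TGTGGT in 3 regions, TGTGGC in 4, TGCGGT in 2 and TGCGGC in 2. TGTGGT was in 23.1% of the 13 (8.18% to 50.3%) and in 54.3% of the whole list. Of the motif shares compared, only this one had an interval that left out the value of the whole list. That is not a test, since several shares were compared and 7 of the 13 regions came from the Zfp36 window. Outside the central 200 bp, TGTGGT was also present in the regions at -4.00 and -2.92 kb of Zfp36 and at 7.01 kb of Zfp36l2. The 13 regions also had a GC content of 55.7% at the median (47.1% to 62.6%), against 49.1%, and the part of GC content in the motif shares was not tested. Their median width was 592 bp against 521 bp, and that of the marked regions 1573 bp against 1592 bp.

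**Figure D4:**
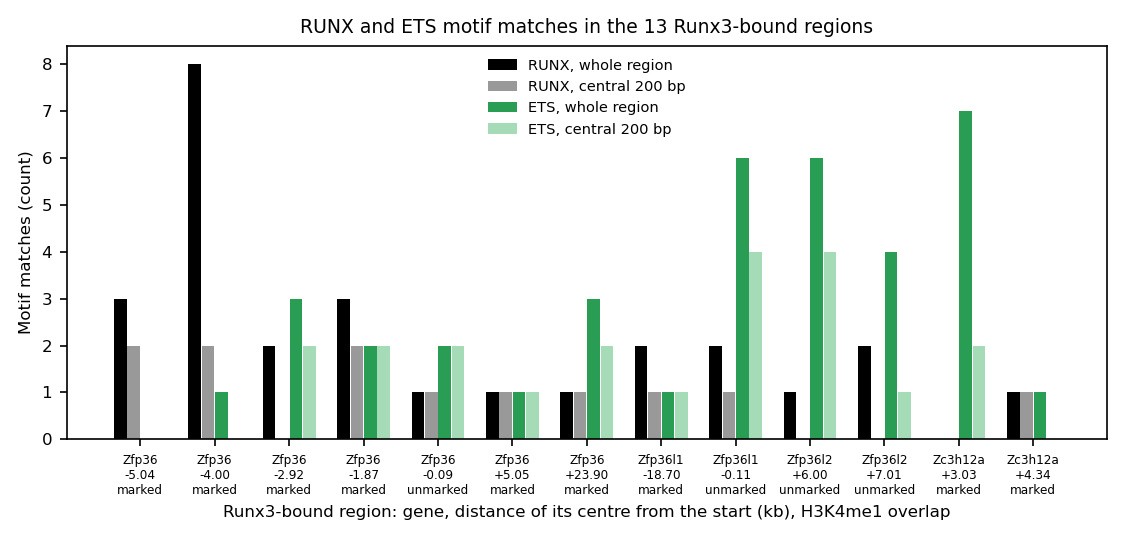
Number of RUNX and ETS motif matches in each of the 13 Runx3-bound regions, in the whole region and in its central 200 bp, ordered by gene and position. The region at -4.00 kb of Zfp36 has the most RUNX matches (8), and that at 3.03 kb of Zc3h12a the most ETS matches (7) and 0 RUNX matches.

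Across the 4 windows the genome held 531 RUNX motifs. The density was 3.65 per kb inside Runx3-bound regions (27 motifs in 7.40 kb), 2.00 per kb in H3K4me1-marked sequence outside them and 1.98 per kb elsewhere. In Runx3-bound regions it was 5.13 per kb at Zfp36, 3.65 at Zfp36l1, 2.12 at Zfp36l2 and 0.849, from 1 motif, at Zc3h12a. In marked sequence outside them it was 1.58, 2.03, 2.44 and 1.78 per kb, and elsewhere 2.18, 2.27, 1.71 and 1.80 per kb, in the same order of genes. The Runx3-bound regions thus had the highest density at Zfp36 and Zfp36l1, but not at Zfp36l2 or Zc3h12a. Of the 27 motifs, 8 lay in the single region at -4.00 kb of Zfp36. Taken by region, the median density of the 13 was 2.92 per kb, below the 3.99 per kb of the whole Runx3 list.

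Beyond the windows, the nearest Runx3-bound regions not counted were 8.07 kb past the Zfp36 window (chr7:29123157-29123737), 33.8 kb past that of Zfp36l2, 117 kb past that of Zfp36l1 and 237 kb past that of Zc3h12a. For H3K4me1 they were 6.08 and 6.59 kb past the 2 ends of the Zfp36l2 window, 7.74 kb past that of Zfp36l1, 20.1 kb past that of Zc3h12a and 20.7 kb past that of Zfp36. On the upstream side of Zc3h12a the nearest Runx3-bound region lay 953 kb past the window.

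The partners of these proteins were taken from lists of mRNA decay genes, chosen with earlier results of the data known. Of 16 genes of the CCR4-NOT complex and deadenylation, 10 had a Runx3-bound region and 5 had 2 or more. The most were at Btg2 with 4, Cnot8 with 3 and Btg1, Cnot4 and Pan2 with 2 each. Cnot8 encodes a catalytic deadenylase, and Btg1 and Btg2 encode antiproliferative proteins that bind the deadenylase. Of 9 decapping genes 4 had a Runx3-bound region, led by the helicase gene Ddx6 with 3 and the decapping enhancer genes Edc4 with 2 and Edc3 with 1, as many as at the exonuclease gene Xrn1. Both lists are to be read beside the 39.6% of all genes with at least 1.

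Of 13 further RNA-binding proteins and relatives of Regnase-1, 6 had a Runx3-bound region, again beside 39.6% of all genes. Arid5a, whose protein binds stem-loops and opposes Regnase-1 at some mRNAs, had 5, while N4bp1, which encodes a nuclease related to Regnase-1, and Khsrp, which encodes an AU-rich element binding protein, had 2 each. The Regnase paralogs Zc3h12c and Zc3h12d and the Roquin genes Rc3h1 and Rc3h2 had 0 Runx3-bound regions, as most genes did. The paralog Zc3h12b had 1 Runx3-bound region. Zc3h12d nevertheless had 6 H3K4me1-marked regions over 11.1% of its window, and Rc3h2 had 1 over 0.978%.

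Of 6 protein regulators, 5 had a Runx3-bound region, against 39.6% of all genes. Mapkapk2, which encodes the kinase that phosphorylates tristetraprolin, had 7, as many as Zfp36, and 6 of them overlapped H3K4me1. Its body is 43.9 kb long and that of Zfp36 2.47 kb, so its window is the longer. Counts in these lists were not adjusted for gene length. Malt1 had 3, all of them overlapping H3K4me1, and the phosphatase subunit gene Ppp2ca had 1, as did Mapk14 and Ywhab. Of 16 mRNAs known as targets, 12 had a Runx3-bound region and 9 had 2 or more, against 39.6% and 18.1% of all genes. Tnf, the classical target of tristetraprolin, had 6 and a window 50.7% covered by H3K4me1. Ctla4, encoding an inhibitory T cell receptor, had 5, and Il10, encoding an anti-inflammatory cytokine, had 4, as did Tnfrsf4. Windows of listed genes on the same chromosome, such as Il10 and Mapkapk2 on chromosome 1, may share regions, which was not examined. Il2, Csf2, Il6 and Rel had 0 Runx3-bound regions.

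**Figure D5:**
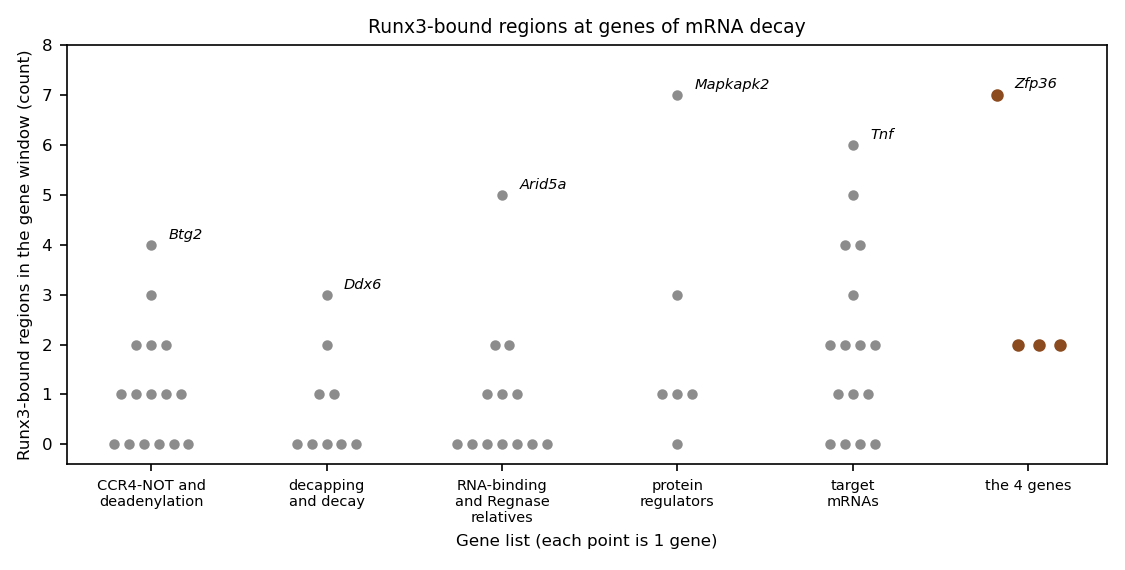
Number of Runx3-bound regions in the gene window (vertical axis) for each gene (points) of 5 lists of mRNA decay genes and for the 4 genes themselves (brown). Mapkapk2 and Zfp36 reach 7 and Tnf 6, and each list except the 4 genes has members at 0.

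Likeness to other genes was measured by the Jaccard index of the positions of both kinds of region, in 60 bins of 1 kb around the start, over 10108 to 10115 genes. The most alike to Zfp36 were Dohh (0.548), Irf1 (0.447) and Gbp4 (0.429). For Zfp36l1 they were Pim3 (0.636), Crot (0.583) and Bin2 (0.562), for Zfp36l2 Eif3k (0.500), St6galnac2 (0.474) and Emilin2 (0.467), and for Zc3h12a 1110002N22Rik (0.667), Gm9991 (0.615) and Gm1305 (0.583). Among the 4 genes the index went from 0 to 0.303, the highest between Zfp36 and Zfp36l2. Since the named genes are the highest of all genes compared, their values are not comparable with those among the 4.

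The labelled cell type was checked by H3K4me1 within 5 kb of marker genes, since the lists hold no expression values. A marked region was present at 6 of 6 T cell genes, 3 of 4 B cell genes, 2 of 4 myeloid and dendritic cell genes and 1 of 2 NK cell genes, and at 28.6% of all protein-coding genes. The T cell genes may share marked regions, since Cd3d, Cd3e and Cd3g are all on chromosome 9 and Cd8a and Cd8b1 on chromosome 6. By the methods of the study nearly all cells were CD8-TC at the end of the culture. The part of other cell types in the regions above was not tested.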

How the data were processed

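Runx3, H3K4me1 and NIS ChIP-seq libraries came from IL-2-activated CD8-TC of ICR mice. Per the labels and the methods of the study, the authors used ELAND for alignment to mm9, with unique alignments kept, and MACS for peak calling on joined repeats against NIS, with the larger read set scaled to the smaller. The deposited values, of unit other, were each region's first and last position in bp, in 2 lists without scores, so the read depth behind a region is unknown. The labels list 1 H3K4me1 library but mention replicate experiments for both antibodies. Uniquely aligned reads leave repeats uncovered.

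From these lists, regions within 30 kb of each gene (NCBIM37, GENCODE vM1) were counted from position 1, with overlap of at least 1 bp. The same was done for 22350 protein-coding genes on the 19 autosomes and chromosome X. Motifs were searched on both strands. No test was run, since position chose the members. The 4 genes, the lists and the rule for named genes were chosen with earlier results of these data known. That rule named the 4 genes, genes overlapping or nearest to their Runx3-bound regions, the 3 genes with most Runx3-bound regions in each list (ties by H3K4me1-marked regions, then alphabet, with genes tied for the last place also named here) and the 3 most alike by Jaccard index. Shares carry Wilson 95% intervals. Cnot9 was matched as Rqcd1 and Cnot11 as D1Bwg0212e. Python 3.11.15, NumPy 2.4.6, SciPy 1.17.1 and matplotlib 3.10.9 were used, and overlap and motif functions were tested on simulated data. Alternatives changed the extension, overlap rule, region width, merging, motif window, start definition and gene background.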

Additional observations from a re-analysis of the deposited data

How the results depend on the processing

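Of 30 alternative values for 12 results, 20 stayed within the limits set for the value reported and 10 moved. These limits differed by result, so the 20 are not all close to the value reported. An H3K4me1 overlap of 42.9% (3 of 7) in place of 69.2% counted as staying, and a share of 4.90% in place of 5.29% as moved. With an extension of 10 kb, 10 marked regions remained in place of 16. With only regions at least as wide as the median of their list, 7 Runx3-bound and 7 marked regions were counted, and merging regions closer than 1 kb left 8 Runx3-bound regions. A RUNX motif was in the central 100 bp of 5 regions, against 9 for 200 bp. Among genes no longer than the longest of the 4, 12.8% had at least 2 Runx3-bound regions, against 18.1% of all, and 4.90% had the median cover of the 4 windows, against 5.29%. The overlap with H3K4me1 ranged from 42.9% to 69.2%. With an extension of 50 kb, 14 Runx3-bound and 21 marked regions were counted, and 12 Runx3-bound regions held a RUNX motif anywhere in the region. By construction, these wider settings can only add regions or letters, while narrower windows, the width limit and merging can only remove them. The cause of the shifts in the shares of genes was not tested. The distances upstream of the start (3 and 10 kb) and the chain limits (1.5 and 3 kb) were chosen after seeing the data, as was the share of genes that matched Zfp36 after merging (2.85% in place of 0.412%). Genes with 4 or more upstream centres then numbered 0 and 5 in place of 1. No paired analysis was possible because reads of the repeats had been joined before peaks were called. The number of regions depends on read depth, and the lists hold no reads per region, so a window without a region cannot be told from one under the calling threshold.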
